A study of Homo sapiens with 60 samples.

Results

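The 35 genes described here code for proteins of the lysosome and of autophagy: 3 proteins of the lysosome membrane, 6 lysosomal proteases, 6 genes for glycosidases and their activator, 5 subunits or partners of the proton pump of the lysosome (the V-ATPase), 2 transcription factors, 1 autophagy receptor, 3 members of the ATG8 family, 5 genes of autophagy initiation and nucleation, and 4 of the conjugation machinery. They were taken from a list of gene names and matched to Ensembl identifiers through GENCODE 29. All 35 were found among the 60675 identifiers of the deposited count table, each under 1 identifier, and all 35 were among the 17268 genes with enough counts to be tested.

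The study treated A549 cells, an established human non-small cell lung carcinoma line, for 24 h with water extracts of herbs or herbal prescriptions and sequenced their mRNA. The 60 libraries comprised 3 of vehicle cells and 57 of cells given 1 of 7 extracts at a high, medium or low dose. Citri Unshius Pericarpium (Citri), Cimicifugae Rhizoma (Cimicifugae), Bupleuri Radix (Bupleuri), Yijung-tang (Yijung) and Banhasasim-tang (Banhasasim) were given at 500, 100 and 20 µg/mL, with 3 libraries a dose. Aconiti Lateralis Radix Preparata (Aconiti) was given at 360, 72 and 14.4 µg/mL, also with 3 libraries a dose. Bojungikgi-tang (Bojungikgi) was given at 500, 100 and 20 µg/mL, with 1 library a dose. The design text states that an extract with an IC20 below 500 µg/mL was used at its IC20 and at dilutions of it. It gives the vehicle as 2% DMSO, whereas the sample labels give 0.1% DMSO, and nothing states the DMSO in the extract samples. Every library came from the same line, and nothing says that replicates were separate cultures, so p-values measure only the spread between these libraries, which may be technical. The sample titles give all 60 libraries the same batch (Second_BatchB). The sample codes differ in their first field, used here as a set label. It is B1 for vehicle, 5 for Citri and Cimicifugae, 6 for Bupleuri and Aconiti, 7 for Yijung and Banhasasim, and 8 for Bojungikgi. Titles and codes do not say what this field stands for. Against vehicle, extract and set therefore cannot be told apart. Doses of 1 extract, and the 2 extracts of 1 set, can be compared within a set label.

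Lysosomes are acidic organelles in which proteases and glycosidases break down proteins and sugars, and the V-ATPase supplies the acid. In autophagy, ULK1 and a lipid kinase complex with BECN1 start a double membrane, ATG8 proteins are bound to it by the conjugation machinery, receptors such as SQSTM1 bring cargo to it, and the closed vesicle fuses with a lysosome. TFEB and TFE3 are transcription factors held in the cytoplasm when the nutrient sensor mTORC1 is active, and they act on many lysosomal and autophagy genes through a DNA element known as the CLEAR motif.

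Library totals ran from 17793635 to 30188167 counts, with a median of 25758890. The epithelial genes KRT8 and KRT18, the keratins of simple epithelia, ran from 2662 to 4720 CPM (a gene's share of the library's counts, scaled by the trimmed mean of M values, TMM) and from 2118 to 3785 CPM. Other epithelial markers of the same list were low: EPCAM at 3.14 to 7.86, CDH1 at 13.0 to 31.0 and KRT19 at 18.2 to 40.6 CPM. AKR1C1, AKR1B10, ALDH1A1 and ALDH3A1, the rest of that list, did not fall below 240.4 CPM in any library. Among leukocyte markers, PTPRC, CD3E and LYZ did not pass 0.136 CPM in any library, and CD14 lay between 0.697 and 2.78 CPM. Mitochondrially encoded genes took 16.5% to 18.95% of the counts of the Aconiti high libraries and 13.5% to 15.2% at the medium dose, against 7.91% to 8.54% in vehicle. The sum of 4 fibroblast and muscle markers, mostly COL1A1, was 41.1 to 42.4 CPM in vehicle, 29.3 to 35.3 CPM at Aconiti high, 18.8 to 20.3 CPM at Yijung medium and 21.7 to 23.4 CPM at Yijung high, while DCN, a defining fibroblast marker, did not pass 0.274 CPM in any library. The part of these shifts in the results was not tested. In bulk RNA, fewer cells of a type and less RNA per cell cannot be told apart.

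In vehicle cells the 35 genes covered a wide range of levels, given here per kilobase of exon so that genes can be compared. PSAP, the precursor of the saposins that activate lysosomal lipid breakdown, was highest at 219 ± 5.03 CPM per kilobase (SD, n = 3). SQSTM1 followed at 108 ± 5.30, CTSL at 80.1 ± 2.31 and the aspartic protease gene CTSD at 59.9 ± 3.08 CPM per kilobase. The lowest were WIPI1 at 1.05 ± 0.0829 and TFEB at 0.683 ± 0.106 CPM per kilobase. Several neighbours in this order lay within their spread, such as ATP6V1H at 5.94 ± 0.125 and ATP6V0D1 at 5.92 ± 0.0873 CPM per kilobase.

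To show what the promoters of these genes hold, the 300 bases from 250 before to 50 after the annotated start were read from RefSeq (GRCh38.p14) for the 27 members with an entry. The E-box core CACGTG was searched on both strands and was present in 7 of the 27 promoters (NEU1, CTSD, LAMP1, ATP6V0D1, GAA, MCOLN1 and CTSA), against 7.26% of all 35116 promoters. The longer CLEAR-type form TCACGTGA, which contains that core and reads the same on both strands, was present in 5 of the 27, against 0.98% of all promoters. TGATGNAA, a form of the element bound by ATF4, was found in 0 of the 27 and in 3.62% of all promoters. The 5 promoters with the CLEAR-type form are shown because they can be set beside the expression of the same genes; each line gives the 100 bases before the start, 5′ to 3′ on the gene's strand, with the motif in capitals. GAA lies at chr17:80101481-80101580 on the plus strand, LAMP1 at chr13:113297139-113297238 on the plus strand, MCOLN1 at chr19:7522524-7522623 on the plus strand, CTSA at chr20:45891235-45891334 on the plus strand and ATP6V0D1 at chr16:67481158-67481257 on the minus strand. LAMP1 has a further copy that crosses the start and is not shown whole.
GAA: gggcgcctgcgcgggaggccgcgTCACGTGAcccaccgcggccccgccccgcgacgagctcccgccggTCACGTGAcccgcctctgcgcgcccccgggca
LAMP1: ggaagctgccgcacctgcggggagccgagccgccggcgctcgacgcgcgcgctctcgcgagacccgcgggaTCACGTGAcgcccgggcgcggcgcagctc
MCOLN1: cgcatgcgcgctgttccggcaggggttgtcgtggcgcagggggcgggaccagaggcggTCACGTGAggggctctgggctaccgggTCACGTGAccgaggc
CTSA: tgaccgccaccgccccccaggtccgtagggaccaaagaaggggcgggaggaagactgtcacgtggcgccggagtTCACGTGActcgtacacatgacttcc
ATP6V0D1: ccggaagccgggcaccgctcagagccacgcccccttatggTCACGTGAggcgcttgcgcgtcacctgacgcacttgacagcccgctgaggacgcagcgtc

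With Aconiti at 360 µg/mL 16 of the 35 genes changed against vehicle: 11 rose and 5 fell (edgeR's quasi-likelihood test, Benjamini-Hochberg adjusted over all genes tested, threshold 0.05). In the same comparison 5652 of the 17268 genes tested, 32.7%, passed the threshold, 17.0% higher and 15.7% lower. The median log2 fold of the 35 was 0.060, against -0.0045 over all genes. WIPI1, ULK1 and BECN1 of autophagy initiation and nucleation rose, as did the cargo receptor gene SQSTM1. Of the ATG8 family MAP1LC3B rose and GABARAPL1 fell, and every V-ATPase member that passed the test fell. The 3 vehicle and 3 Aconiti high libraries did not overlap for 19 of the 35 members, where 41.6% of all genes did not overlap. With the mitochondrially encoded genes removed before scaling, 17 of the 35 passed the threshold, where 32.7% of all genes did. Of the 5 genes whose promoters are shown above, GAA rose and LAMP1, MCOLN1, CTSA and ATP6V0D1 did not pass the test.

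**Figure D1:**
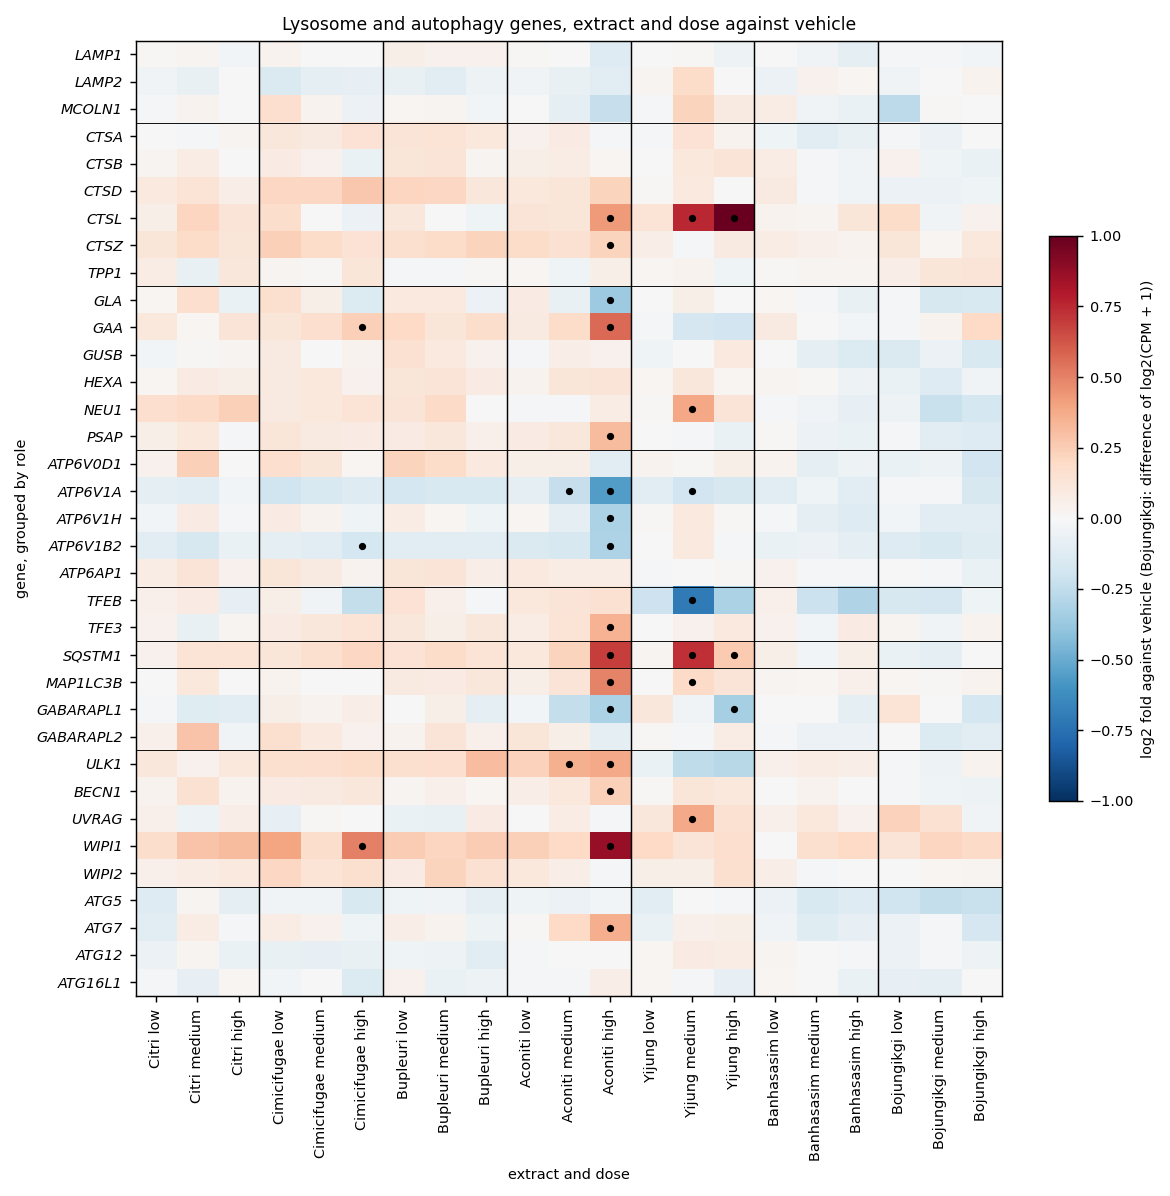
Log2 fold of each of the 35 genes (rows, grouped by role) against vehicle for every extract and dose (columns); dots mark an edgeR adjusted p under 0.05, and for Bojungikgi, with 1 library a dose and no test, the colour is the difference of log2(CPM + 1). The Aconiti high column holds 16 dots, Yijung medium 7, Yijung high and Cimicifugae high 3 each and Aconiti medium 2.

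None of the 3 lysosome membrane genes passed the test at Aconiti high. LAMP1, a main glycoprotein of the lysosome membrane, had a log2 fold of -0.13 (edgeR adjusted p = 0.0531), although its Aconiti high libraries at 95.8, 102 and 97.1 CPM were all below vehicle at 105, 106 and 112 CPM. MCOLN1, the lysosomal calcium channel, had a log2 fold of -0.23 (edgeR adjusted p = 0.0578), again with no overlap between its 3 libraries of each group. LAMP2 had -0.11 (edgeR adjusted p = 0.217).

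Of the 6 proteases, CTSL and CTSZ rose at Aconiti high. CTSL, a cysteine protease of the lysosome, had 184, 189 and 195 CPM in vehicle and 237, 263 and 262 CPM at the high dose, with 190.2 to 231 CPM at the low and 197 to 219 CPM at the medium dose. All 3 high-dose libraries lay above every vehicle, low and medium library. The log2 fold against vehicle was 0.43 ± 0.08 (SE; edgeR adjusted p = 8.66e-05). CTSZ, another cysteine protease, had a log2 fold of 0.22 ± 0.08 (edgeR adjusted p = 0.0279), and its call ended without vehicle library 1, vehicle library 2 or Aconiti high library 2. It also ended without the low-count filter and with only the groups compared in the fit. The same held with the balance of long against short transcripts as a covariate. CTSA, CTSB and TPP1 had log2 folds between -0.02 and 0.06, and CTSD had 0.22 (edgeR adjusted p = 0.0641).

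Among the glycosidases and their activator, GAA and PSAP rose and GLA fell at Aconiti high. GAA, the acid glucosidase that digests glycogen in lysosomes, is at chr17:80101556-80119879 (GRCh38, GENCODE 29, plus strand). It stood at 62.6, 59.4 and 61.4 CPM in vehicle and at 84.3, 102 and 85.0 CPM at the high dose, with Aconiti high library 2 the highest of all. Low-dose libraries held 62.9 to 67.1 CPM and medium-dose libraries 65.9 to 72.7 CPM, so the low dose already lay above vehicle and the high dose lay above both. The log2 fold was 0.56 ± 0.07 (edgeR adjusted p = 6.2e-09). Lying above vehicle was not particular to Aconiti. Every Bupleuri library of GAA, at 63.0 to 77.3 CPM, and every Cimicifugae library, at 63.8 to 73.5 CPM, also lay above vehicle. The Yijung high libraries, at 49.5 to 59.0 CPM, lay below it. PSAP had 702, 699 and 729 CPM in vehicle and 800.0, 1002 and 855 CPM at Aconiti high, and the groups did not overlap. Its log2 fold was 0.32 ± 0.08 (edgeR adjusted p = 0.00136).

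GLA, the galactosidase that is deficient in Fabry disease, moved the other way. Vehicle held 116, 114 and 122 CPM and Aconiti high 78.5, 102 and 93.2 CPM, all below vehicle. The log2 fold was -0.37 ± 0.11 (edgeR adjusted p = 0.00717), and without Aconiti high library 1, the lowest, GLA no longer passed the threshold. The remaining members of this group, GUSB, HEXA and NEU1, had log2 folds of 0.04, 0.13 and 0.07 and did not pass the test.

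Of the 5 V-ATPase genes, ATP6V1A, ATP6V1H and ATP6V1B2 fell at Aconiti high, all 3 of them subunits of the V1 sector that splits ATP outside the lysosome. ATP6V1A, the catalytic subunit, had 66.7, 68.0 and 66.7 CPM in vehicle, 64.8, 62.9 and 60.6 CPM at the low dose, 57.3, 56.8 and 57.5 CPM at the medium dose and 49.2, 42.0 and 45.4 CPM at the high dose. The 4 groups did not overlap, each lying below the dose before it. At the high dose the log2 fold against vehicle was -0.56 ± 0.06 (edgeR adjusted p = 8.06e-11). Lying below vehicle was not particular to Aconiti. Every Cimicifugae library of ATP6V1A, at 52.0 to 62.9 CPM, and every Bupleuri library, at 55.8 to 64.5 CPM, also lay below vehicle. Of all libraries of other extracts, only Citri high library 2, at 67.1 CPM, reached the vehicle range. ATP6V1B2, another subunit of the catalytic ring, fell by 0.31 ± 0.05 on the log2 scale (edgeR adjusted p = 1.94e-06), with 75.8, 74.5 and 76.1 CPM in vehicle and 61.2, 60.8 and 60.7 CPM at the high dose. ATP6V1H, a regulatory subunit, fell by 0.32 ± 0.09 (edgeR adjusted p = 0.00484). ATP6V0D1, of the membrane sector, and the accessory protein gene ATP6AP1 had log2 folds of -0.12 and 0.07 and did not pass the test.

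Of the 2 transcription factors, TFE3 rose at Aconiti high. It had 91.1, 84.4 and 93.2 CPM in vehicle, 94.3 to 94.6 CPM at the low dose, 97.8 to 99.96 CPM at the medium dose and 110.2, 116 and 115 CPM at the high dose, so the groups followed dose with no overlap. The log2 fold against vehicle was 0.34 ± 0.05 (edgeR adjusted p = 1.87e-07). TFEB, at 3.33 to 4.51 CPM in vehicle, had a log2 fold of 0.15 (edgeR adjusted p = 0.466).

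SQSTM1, the p62 receptor that binds ubiquitin-tagged cargo and ATG8 proteins, lies at chr5:179806398-179838078 on the plus strand. In vehicle it had 792, 819 and 872 CPM, and at Aconiti high 1222, 1447 and 1348 CPM. Low and medium doses held 859 to 944 and 901 to 1024 CPM, below every high-dose library. Its log2 fold was 0.69 ± 0.08 (edgeR adjusted p = 7.9e-09). The span of SQSTM1 overlaps those of MRNIP and MGAT4B on the other strand, at 34.6 and 111 CPM on average before scaling, and whether the counting used strand is not given in the sources used here.

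In the ATG8 family, whose proteins coat the autophagosome, MAP1LC3B rose and GABARAPL1 fell at Aconiti high. MAP1LC3B (LC3B) had 66.7, 70.9 and 72.4 CPM in vehicle and 95.6, 96.9 and 104 CPM at the high dose, with 69.8 to 76.9 CPM at the low and 74.7 to 79.2 CPM at the medium dose. Its log2 fold was 0.50 ± 0.06 (edgeR adjusted p = 8.47e-09). GABARAPL1 had 27.4, 29.05 and 28.4 CPM in vehicle, 23.8, 24.5 and 23.5 CPM at the medium dose and 22.8, 20.5 and 24.7 CPM at the high dose. Both upper doses lay below vehicle but overlapped each other. The high-dose log2 fold was -0.32 ± 0.08 (edgeR adjusted p = 0.00189). GABARAPL2 had a log2 fold of -0.10 (edgeR adjusted p = 0.615). The near-identical gene MAP1LC3B2 averaged 0.405 CPM, so few reads could be shared with it, while FBXO31 overlaps MAP1LC3B on the other strand at 30.4 CPM.

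Of the 5 initiation and nucleation genes, WIPI1, ULK1 and BECN1 rose at Aconiti high. WIPI1, which binds the phosphoinositide made at the forming autophagosome, lies at chr17:68420948-68457513 on the minus strand and had the largest fold of the 35. It had 3.77, 3.70 and 3.25 CPM in vehicle and 6.32, 5.90 and 7.41 CPM at the high dose, while low and medium doses lay between 3.91 and 4.40 CPM. The log2 fold against vehicle was 0.87 ± 0.11 (edgeR adjusted p = 6.11e-08). Its span overlaps that of ARSG on the other strand, at 1.21 CPM. Lying above vehicle was not particular to Aconiti. Every Citri library, at 3.90 to 4.98 CPM, and every Cimicifugae low library, at 4.52 to 5.10 CPM, also lay above it. Cimicifugae medium, Bupleuri medium, Yijung high and medium, and Banhasasim high and low held libraries within the vehicle range.

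ULK1, the kinase that starts autophagy, showed another dose course. Vehicle held 130.2, 125 and 119 CPM, the low dose 158, 148 and 133, the medium dose 164, 159.6 and 154, and the high dose 163, 167 and 155 CPM. All 9 Aconiti libraries lay above vehicle, and the medium and high doses overlapped. This was not particular to Aconiti. Every Cimicifugae library, at 132.7 to 148.5 CPM, and every Bupleuri high and medium library, at 136.3 to 161.8 CPM, also lay above vehicle. The Yijung high libraries, at 86.9 to 113 CPM, lay below it. The high-dose log2 fold was 0.38 ± 0.09 (edgeR adjusted p = 0.00137). BECN1, of the lipid kinase complex, rose by 0.24 ± 0.06 (edgeR adjusted p = 0.00152). Its span overlaps that of PSME3 on the other strand, at 331 CPM. UVRAG and WIPI2 both had log2 folds of -0.01 and did not pass the test.

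In the conjugation machinery, ATG7 alone of 4 genes passed the test at Aconiti high. ATG7, the E1-like enzyme that activates ATG12 and the ATG8 proteins, had 27.6, 26.6 and 29.7 CPM in vehicle and 33.6, 37.7 and 36.2 CPM at the high dose. Medium-dose libraries held 29.9 to 34.5 CPM and overlapped the high dose but not vehicle. The log2 fold was 0.36 ± 0.09 (edgeR adjusted p = 0.00105). VGLL4 overlaps ATG7 on the other strand at 28.7 CPM. ATG5, ATG12 and ATG16L1, which together form the ligase for ATG8 lipidation, had log2 folds of -0.03, -0.0028 and 0.06 and did not pass the test.

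**Figure D2:**
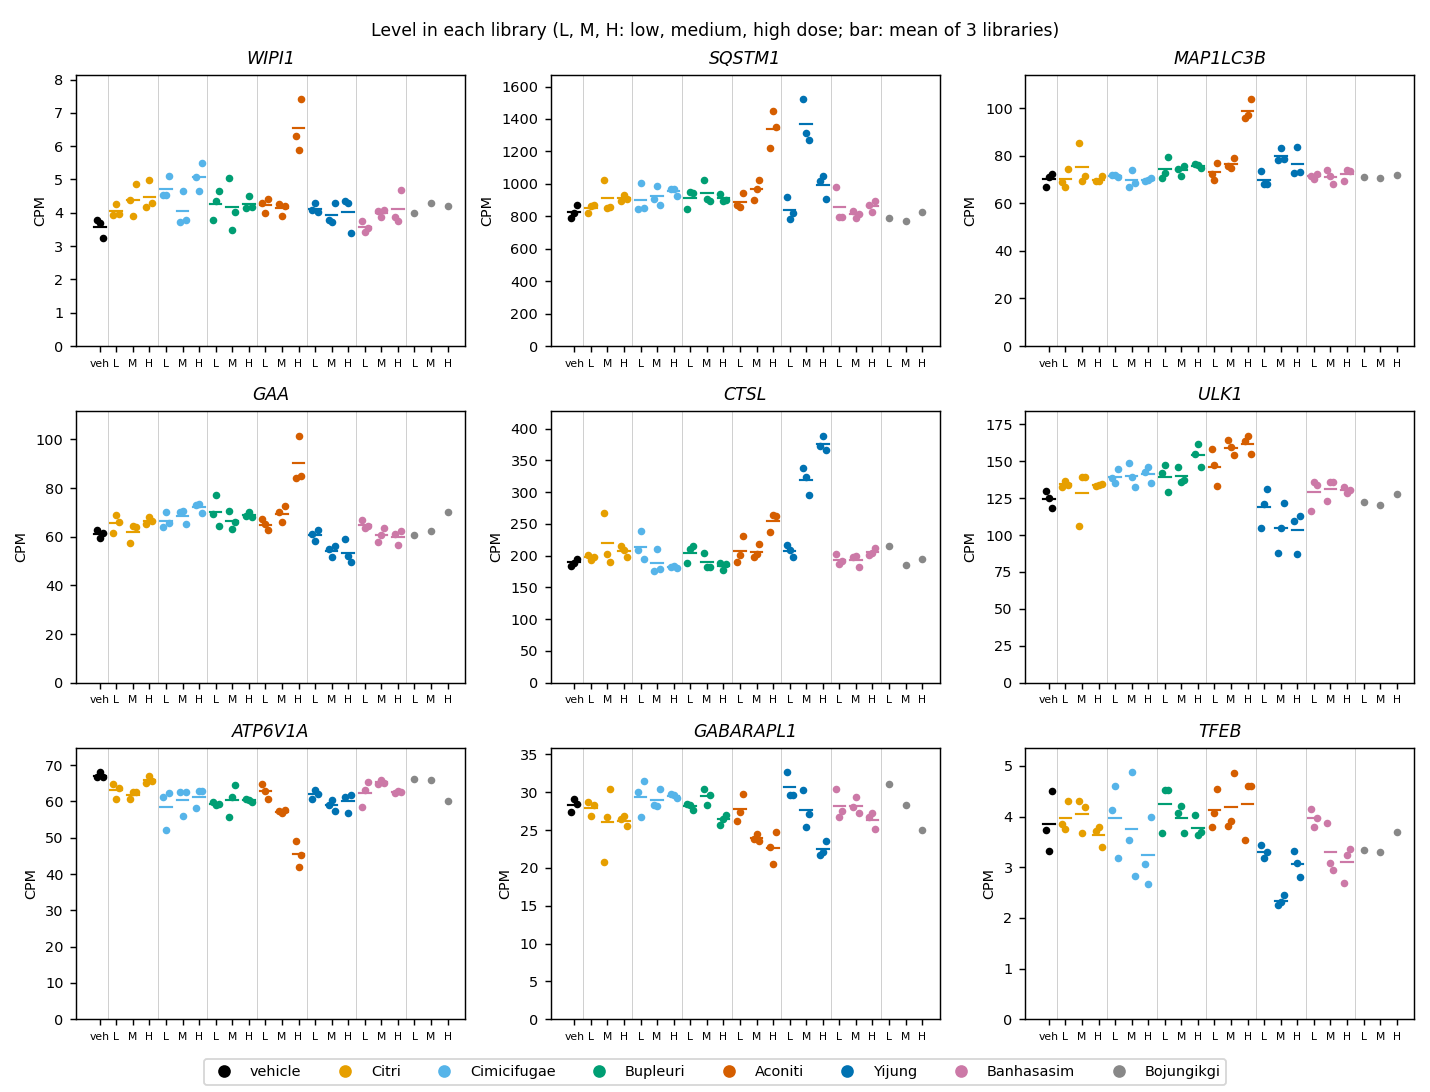
CPM of 9 of the genes in each of the 60 libraries, by extract and dose (L, M and H, low, medium and high; veh, vehicle), with bars at the means of 3 libraries and axes starting at 0. WIPI1, MAP1LC3B and GAA stand highest at Aconiti high, SQSTM1 at Yijung medium and Aconiti high, and CTSL at Yijung high and medium. ATP6V1A is lowest at Aconiti high.

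Within the Aconiti doses, which share a set label, 14 of the 35 genes differed between 360 and 14.4 µg/mL: 9 rose and 5 fell (edgeR, threshold 0.05), where 22.7% of all genes passed, 11.4% higher and 11.3% lower. WIPI1 had a log2 fold of 0.63 ± 0.11 (edgeR adjusted p = 2.54e-05), SQSTM1 0.59 ± 0.08 (4.02e-07), GAA 0.47 ± 0.07 (3.85e-07) and MAP1LC3B 0.44 ± 0.06 (2.23e-07). ATP6V1A fell by 0.46 ± 0.06 (1.47e-08) and GLA by 0.45 ± 0.11 (0.00142). CTSL, TFE3, ATG7, BECN1 and PSAP also rose, and ATP6V1H, ATP6V1B2 and GABARAPL1 also fell. Without Aconiti low library 3 the calls of ATP6V1H, ATP6V1B2 and GABARAPL1 ended, without low library 1 those of CTSL, BECN1 and PSAP, without low library 2 those of BECN1 and PSAP, without high library 2 those of GABARAPL1 and PSAP, and without high library 3 those of ATP6V1B2 and BECN1. With only the groups compared in the fit, those of GLA, TFE3, CTSL, BECN1, PSAP, ATP6V1H, ATP6V1B2 and GABARAPL1 ended. Without the low-count filter those of BECN1, PSAP and ATP6V1B2 ended. ULK1 had 0.15 and did not pass the test, nor did CTSZ at 0.04. From the medium to the high dose 8 genes passed (6 rose, 2 fell), where 12.5% of all genes passed, 6.24% higher and 6.21% lower: WIPI1, SQSTM1, GAA, MAP1LC3B, CTSL and TFE3 rose, and ATP6V1A and ATP6V1B2 fell. The medium-to-high call of ATP6V1B2 ended without any 1 Aconiti high library or Aconiti medium library 1 or 3. With only the groups compared in the fit, those of TFE3, ATP6V1A, CTSL, GAA and ATP6V1B2 ended. Without the low-count filter those of TFE3 and ATP6V1B2 ended.

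At 72 µg/mL of Aconiti 2 of the 35 changed against vehicle, where 2.29% of all genes passed, 1.64% higher and 0.654% lower. ULK1 rose by 0.35 ± 0.09 (edgeR adjusted p = 0.0248) and ATP6V1A fell by 0.23 ± 0.06 (edgeR adjusted p = 0.0126). Without vehicle library 2 or Aconiti medium library 3, 0 of the 35 passed (1.25% and 1.28% of all genes). Without any 1 of the 6 libraries ULK1 did not pass. ATP6V1A passed without any of the other 4. At 14.4 µg/mL 0 of the 35 passed by edgeR, where 0.0695% of all genes did, and 0 by DESeq2. Before adjustment 3 had an edgeR p under 0.05, against 4.26% of all genes.

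Bupleuri, in the same set, gives a comparison free of the set label of vehicle, although its high dose is 500 µg/mL and that of Aconiti 360 µg/mL. At these unequal doses 15 of the 35 genes differed between them: 9 were higher and 6 lower in Aconiti (edgeR, 23.1% of all genes, 11.2% higher and 11.8% lower). SQSTM1 had 938, 897 and 901 CPM in Bupleuri high against 1222, 1447 and 1348 CPM in Aconiti high, a log2 fold of 0.55 ± 0.08 (edgeR adjusted p = 1.33e-06). ATP6V1A had 60.6, 60.3 and 59.9 CPM in Bupleuri high, above all 3 Aconiti high libraries and below vehicle (log2 fold of Aconiti over Bupleuri -0.40 ± 0.06, edgeR adjusted p = 2.81e-07). LAMP1, which did not pass against vehicle, was lower in Aconiti than in Bupleuri (-0.17 ± 0.05, edgeR adjusted p = 0.0126). This call ended without Bupleuri high library 1 or 3 or Aconiti high library 1 or 3. It also ended without the low-count filter and with only the groups compared in the fit. ULK1 did not pass here, with 155, 162 and 146 CPM in Bupleuri high.

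The change from the low to the high dose itself differed between Aconiti and Bupleuri for 8 of the 35 genes (edgeR contrast of the 2 changes, 9.95% of all genes, 5.03% more positive and 4.92% more negative). Of these, 7 were more positive in Aconiti: WIPI1, SQSTM1, GAA, ATG7, CTSL, MAP1LC3B and TFE3; ATP6V1A was more negative. Without the low-count filter the calls of WIPI1 and TFE3 ended. SQSTM1 had a difference of 0.59 ± 0.12 (edgeR adjusted p = 0.00042), made of a change of 0.59 in Aconiti and -0.0009 in Bupleuri. ATP6V1A had -0.48 ± 0.08 (edgeR adjusted p = 2.06e-05), made of -0.46 and 0.02. Between the 2 outer doses of Bupleuri none of the 35 passed (edgeR, where 0.353% of all genes did; 0 by DESeq2), and 0 had an unadjusted p under 0.05, against 5.27% of all genes.

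**Figure D3:**
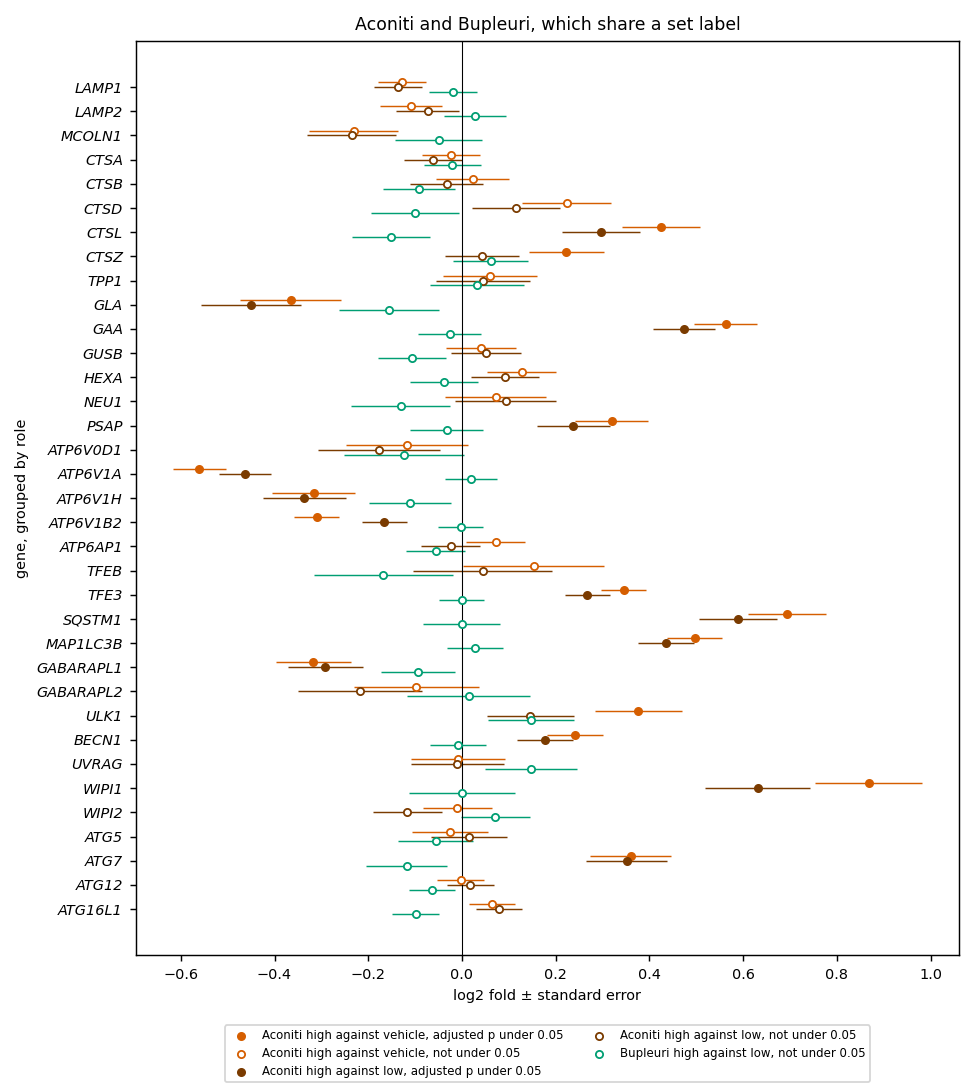
Log2 fold ± standard error of the 35 genes for Aconiti high against vehicle, Aconiti high against low and Bupleuri high against low, with filled points for an edgeR adjusted p under 0.05. WIPI1 lies at 0.87, 0.63 and 0.0006 and ATP6V1A at -0.56, -0.46 and 0.02 in the 3 comparisons.

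With Yijung, CTSL rose at both upper doses and SQSTM1 most at the medium dose. At 500 µg/mL 3 of the 35 genes passed against vehicle, 2 higher and 1 lower (edgeR, 7.09% of all genes, 3.76% higher and 3.33% lower). At 100 µg/mL 7 passed, 5 higher and 2 lower (edgeR, 7.85% of all genes, 4.01% higher and 3.83% lower), with a median log2 fold of 0.060 over the 35 and 0.0000 over all genes. At 20 µg/mL 0 passed by edgeR, where 0.0116% of all genes did, and 0 by DESeq2. Before adjustment 1 had an edgeR p under 0.05, against 3.56% of all genes. These comparisons use the same vehicle libraries as those of Aconiti, so the values of each are given side by side and their overlap was not counted.

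CTSL lies at chr9:87725519-87731393 on the plus strand (GRCh38, GENCODE 29). Its libraries held 217, 208 and 198 CPM at the low dose of Yijung, 338, 324 and 296 CPM at the medium dose and 373, 389 and 366 CPM at the high dose, against 184, 189 and 195 CPM in vehicle. The 4 groups did not overlap. The log2 fold was 0.75 ± 0.08 at the medium dose (edgeR adjusted p = 5.74e-09) and 0.99 ± 0.08 at the high dose (3.54e-12), where Aconiti high had 0.43. Pseudogenes named for CTSL did not pass 0.0410 CPM in any library.

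SQSTM1 followed no steady dose course in Yijung. Libraries held 919, 781 and 823 CPM at the low dose, 1522, 1315 and 1272 CPM at the medium dose and 1018, 1051 and 908 CPM at the high dose. All 3 medium libraries lay above all 3 high libraries, and both groups above vehicle. The log2 fold was 0.73 ± 0.08 at the medium dose (edgeR adjusted p = 1.07e-08) and 0.26 ± 0.08 at the high dose (0.0434). From medium to high SQSTM1 fell by 0.46 ± 0.08 (edgeR adjusted p = 0.000653), the only 1 of the 35 past the threshold in that comparison (1.08% of all genes). That call ended with only the groups compared in the fit. The high-dose call against vehicle ended without vehicle library 1 or 2 or Yijung high library 1 or 2. It also ended without the low-count filter and with only the groups compared in the fit.

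TFEB was lower at the medium dose of Yijung, the only comparison with vehicle in which it passed the test. It had 3.73, 3.33 and 4.51 CPM in vehicle, 3.44, 3.18 and 3.30 at the low dose, 2.26, 2.32 and 2.44 at the medium dose and 3.33, 3.08 and 2.80 CPM at the high dose. The medium libraries were the lowest 3 of these 12, and the high dose overlapped vehicle. The log2 fold was -0.71 ± 0.16 at the medium dose (edgeR adjusted p = 0.00205) and -0.31 ± 0.16 at the high dose (0.264).

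UVRAG, a partner of BECN1 in vesicle maturation, rose at the medium dose of Yijung, from 15.8, 15.7 and 15.5 CPM in vehicle to 18.9, 21.1 and 21.4 CPM. The high dose held 17.6, 17.1 and 17.7 CPM, between those groups. The medium-dose log2 fold was 0.38 ± 0.10 (edgeR adjusted p = 0.00854) and the high-dose fold 0.15 (0.437). NEU1, the lysosomal sialidase, rose from 13.0, 13.8 and 13.5 CPM to 19.6, 17.4 and 15.5 CPM at the medium dose (log2 fold 0.38 ± 0.11, edgeR adjusted p = 0.0153), which ended without vehicle library 1 or Yijung medium library 1. At the high dose it had 13.9, 16.6 and 13.4 CPM and overlapped vehicle.

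GABARAPL1 fell at the high dose of Yijung to 21.8, 22.1 and 23.6 CPM, below vehicle at 27.4, 29.05 and 28.4 CPM. Low-dose libraries held 32.6, 29.6 and 29.7 CPM and medium-dose libraries 30.3, 25.5 and 27.1 CPM. The low dose lay above vehicle, the medium dose overlapped it and the high dose lay below it. The log2 fold against vehicle was -0.33 ± 0.08 (edgeR adjusted p = 0.00525), where Aconiti high had -0.32. MAP1LC3B and ATP6V1A had smaller changes at the Yijung medium dose, 0.19 ± 0.06 (edgeR adjusted p = 0.0383) and -0.19 ± 0.06 (0.0249). The call of MAP1LC3B ended without vehicle library 1 or 2 or any 1 Yijung medium library, and that of ATP6V1A without any 1 vehicle library or Yijung medium library 1 or 3. Both calls also ended without the low-count filter and with only the groups compared in the fit.

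Within set 7, CTSL and GABARAPL1 were the 2 of 35 genes that differed between the high and low doses of Yijung (edgeR, 4.93% of all genes): CTSL rose by 0.86 ± 0.08 (adjusted p = 2.38e-10) and GABARAPL1 fell by 0.45 ± 0.08 (0.000112). Against Banhasasim at the same 500 µg/mL, 2 of the 35 passed (edgeR, 4.79% of all genes). CTSL had 201, 204 and 212 CPM in Banhasasim high, below every Yijung high library, and a log2 fold of 0.87 ± 0.08 (edgeR adjusted p = 2.49e-10). ULK1 had 109, 86.9 and 113 CPM in Yijung high and 132, 128 and 131 CPM in Banhasasim high, with no overlap, and a log2 fold of -0.34 ± 0.09 (edgeR adjusted p = 0.0207). That call ended without Yijung high library 2, the lowest, or without any 1 Banhasasim high library. It also ended with only the groups compared in the fit. Against vehicle ULK1 had -0.28 at Yijung high (edgeR adjusted p = 0.0624). The low-to-high change of CTSL was greater in Yijung than in Banhasasim by 0.77 ± 0.12 (edgeR adjusted p = 2.66e-05), the 1 member past the threshold in that contrast (1.31% of all genes). Between the outer doses of Banhasasim 0 of the 35 passed (edgeR, where 0.127% of all genes did; 0 by DESeq2), and 1 had an unadjusted p under 0.05, against 4.01% of all genes.

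With Cimicifugae at 500 µg/mL 3 of the 35 genes changed against vehicle, 2 higher and 1 lower (edgeR, 1.96% of all genes, 1.08% higher and 0.88% lower). WIPI1 had 5.08, 4.65 and 5.49 CPM against 3.77, 3.70 and 3.25 CPM in vehicle, a log2 fold of 0.50 ± 0.11 (edgeR adjusted p = 0.00892). Its low-dose libraries, at 4.52, 4.54 and 5.10 CPM, also lay above vehicle and overlapped the high dose. GAA had 72.9, 73.5 and 69.9 CPM against 62.6, 59.4 and 61.4 CPM, a log2 fold of 0.24 ± 0.07 (edgeR adjusted p = 0.0474). ATP6V1B2 had 64.2, 67.7 and 68.4 CPM against 75.8, 74.5 and 76.1 CPM, a log2 fold of -0.18 ± 0.05 (edgeR adjusted p = 0.0378). The groups did not overlap for any of the 3. Without vehicle library 3 or Cimicifugae high library 3, 0 of the 35 passed (1.22% and 1.13% of all genes). Without any 1 of the other 4 libraries 1 passed (0.849% to 1.0% of all genes). Between the outer doses of Cimicifugae 0 of the 35 passed (edgeR, where 1.34% of all genes did; 0 by DESeq2), and 4 had an unadjusted p under 0.05, against 11.4% of all genes. Between Cimicifugae and Citri at 500 µg/mL 0 passed (edgeR, where 0.689% of all genes did; 1 by DESeq2), and 6 had an unadjusted p under 0.05, against 6.71% of all genes. The low-to-high changes of these 2 extracts differed for 0 of the 35 (edgeR, where 0.0579% of all genes passed; 0 by DESeq2), and 2 had an unadjusted p under 0.05, against 4.12% of all genes.

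No member passed the threshold against vehicle in the remaining groups (edgeR). After adjustment 0.0463%, 0.0174% and 0.00579% of all genes passed at Citri high, medium and low. At an unadjusted p under 0.05 the Citri counts were 2, 7 and 1 of 35, against 3.65%, 21.1% and 3.24% of all genes. DESeq2 called 1 of the 35 at Citri medium and 0 at the other 2 doses. Without Citri medium library 2 or 3, edgeR called 4 or 5 of the 35, where it called 13.2% or 12.7% of all genes. Citri medium library 1 stood apart in the balance of long against short transcripts (mean log2 CPM of genes over 6000 bases of exon less that of genes under 1500), at 3.35 against 4.04 to 4.16 in vehicle. Other libraries lay below vehicle by less, such as Cimicifugae low library 2 at 3.69 and Aconiti low library 3 at 3.81. Aconiti high libraries 2 and 3 had 3.79 and 3.80, while Aconiti high library 1 had 4.08. At Cimicifugae medium and low 0.0347% and 0.0116% of all genes passed after adjustment, and 6 and 8 of the 35 had an unadjusted p under 0.05, against 7.0% and 11.3% of all genes. At Bupleuri high, medium and low 0.712%, 0% and 0% of all genes passed after adjustment, and 9, 8 and 8 of the 35 had an unadjusted p under 0.05, against 9.98%, 10.2% and 7.91% of all genes. At Banhasasim high, medium and low 0.185%, 0% and 0% of all genes passed after adjustment, and 0, 0 and 0 of the 35 had an unadjusted p under 0.05, against 4.57%, 2.71% and 3.46% of all genes. DESeq2 called 0 of the 35 in each of these Cimicifugae, Bupleuri and Banhasasim groups. Between the outer doses of Citri 0 of the 35 passed (edgeR, where 0.0232% of all genes did; 0 by DESeq2), and 0 had an unadjusted p under 0.05, against 2.36% of all genes.

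**Figure D4:**
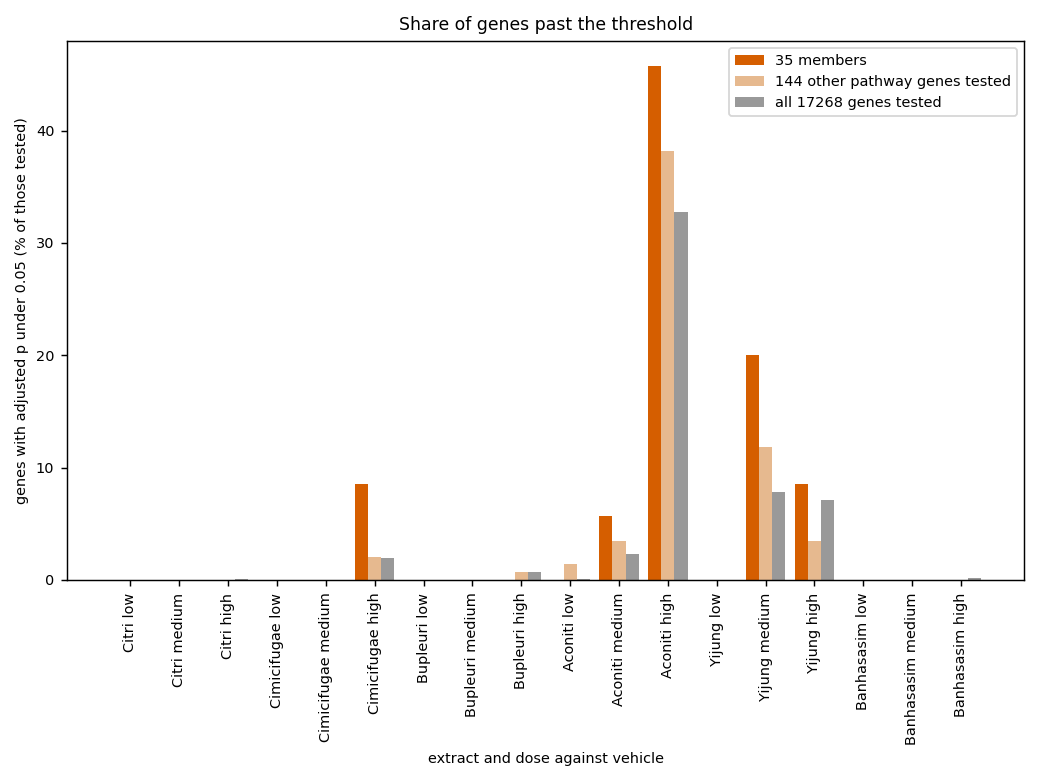
Share of genes with an edgeR adjusted p under 0.05 against vehicle, in percent of those tested, for the 35 genes, 144 other genes of the pathway and all 17268 genes, by extract and dose. At Aconiti high 16 of 35 passed and 32.7% of all genes did.

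Bojungikgi had 1 library a dose, so no test was possible, and differences of log2(CPM + 1) from the vehicle mean are given, which understate the change of low genes. None of the 35 differed by 0.5 or more at any dose, where 0.967%, 1.08% and 1.14% of all genes did at the high, medium and low dose. The differences ran from -0.22 to 0.20 at the high dose, -0.24 to 0.22 at the medium dose and -0.26 to 0.23 at the low dose. At the low dose MCOLN1 had the most negative, at 8.27 CPM against 9.38 to 10.6 CPM in vehicle, and UVRAG the most positive, at 18.6 CPM against 15.5 to 15.8 CPM. ATG5 lay below its vehicle range of 37.4 to 37.9 CPM at all 3 doses, with 32.1, 31.7 and 32.6 CPM at the high, medium and low dose. ATP6V1B2, PSAP, NEU1 and HEXA were among others below vehicle at all 3 doses. For ATG5 this was not particular to Bojungikgi. Citri low, at 33.2 to 36.2 CPM, and Banhasasim high, at 34.2 to 34.7 CPM, also lay wholly below vehicle. Single libraries elsewhere lay above it, such as Cimicifugae low library 2 at 39.6 CPM. Over the 35, 4 lay above, 18 below and 13 within the range of the 3 vehicle libraries at the high dose, where 25.6%, 30.7% and 43.6% of all genes did. At the medium dose 3 lay above, 19 below and 13 within it, against 25.4%, 32.3% and 42.3% of all genes, and at the low dose 7, 13 and 15, against 24.3%, 28.8% and 46.9%.

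Beyond the 35, 145 other genes of the pathway were listed in 6 groups, of which 144 had enough counts to be tested. At Aconiti high 32 of them rose and 23 fell (edgeR, 32.7% of all genes, 17.0% higher and 15.7% lower), with a median log2 fold of 0.034 against 0.060 for the 35 and -0.0045 for all genes. The highest folds were in nutrient sensing upstream of mTORC1. There 6 of the 27 tested rose and 2 fell: SESN2, an inhibitor of mTORC1 that senses leucine, went from 12.8 to 54.1 CPM on average (log2 fold 2.07 ± 0.07, edgeR adjusted p = 2.39e-25), DDIT4, another inhibitor of mTORC1, from 176 to 521 CPM (1.57 ± 0.08, 8.07e-20) and CASTOR1, the arginine sensor, from 6.72 to 14.6 CPM (1.11 ± 0.14, 1.4e-08). SESN3 and FNIP2 fell by 0.62 ± 0.17 and 0.53 ± 0.15.

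The other autophagy genes were divided at Aconiti high. Of 28 other core genes 6 rose and 9 fell, where 17.0% of all genes rose and 15.7% fell. WDR45, like WIPI1 a phosphoinositide-binding protein, rose by 0.66 ± 0.09, MAP1LC3A, the LC3A gene, by 0.62 ± 0.20 and ATG101, a partner of ULK1, by 0.40 ± 0.13. PIK3R4 and PIK3C3, of the lipid kinase complex that holds BECN1, fell by 0.75 ± 0.12 and 0.42 ± 0.11, and ATG2B, a lipid transfer protein, by 0.51 ± 0.20. Of 14 other receptors 6 rose and 1 fell: OPTN rose by 0.60 ± 0.07, CCPG1, a receptor of the endoplasmic reticulum, by 0.47 ± 0.08 and FKBP8, of mitochondria, by 0.42 ± 0.12, while NCOA4, the ferritin receptor, fell by 0.33 ± 0.07.

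Among 37 other lysosomal hydrolases 10 rose and 6 fell at Aconiti high, where 17.0% of all genes rose and 15.7% fell. IDUA, which cuts glycosaminoglycans, rose by 0.98 ± 0.14, the sulfatase gene ARSA by 0.64 ± 0.11 and the protease gene CTSF by 0.53 ± 0.15. CTSV, a close relative of CTSL, fell by 0.45 ± 0.12, HGSNAT by 0.35 ± 0.11 and ARSB by 0.33 ± 0.09. Of 23 other membrane and sorting genes 4 rose and 4 fell. GNPTG and GNPTAB code for subunits of the enzyme that tags hydrolases with mannose 6-phosphate, and GNPTG rose by 0.51 ± 0.15 while GNPTAB fell by 0.56 ± 0.13. TMEM175, a lysosomal ion channel, and CLCN7, a chloride-proton exchanger, rose by 0.36 ± 0.11 and 0.29 ± 0.09, and SORT1 and LAPTM4B fell by 0.44 ± 0.12 and 0.24 ± 0.09. Of 15 other V-ATPase genes 0 rose and 1 fell, the V1 subunit gene ATP6V1C1 (-0.39 ± 0.06, edgeR adjusted p = 3.5e-06).

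At Yijung high 4 of the 144 rose and 1 fell (edgeR, 7.09% of all genes, 3.76% higher and 3.33% lower). Among these, RAB7A, a small GTPase of late endosomes, rose by 0.19 ± 0.05, SESN2 by 0.46 ± 0.07 and DDIT4 by 0.33 ± 0.08, and SESN3 fell by 0.69 ± 0.17. At Yijung medium 13 rose and 4 fell (7.85% of all genes, 4.01% higher and 3.83% lower). The following were chosen after their values were seen: RRAGD and RRAGC, GTPases that bring mTORC1 to the lysosome, rose by 0.90 ± 0.16 and 0.38 ± 0.06, FLCN and FNIP1, which act on them as a complex, by 0.45 ± 0.07 and 0.62 ± 0.14, and SESN3 fell by 1.01 ± 0.17. ATP6V1C1 rose at Yijung medium by 0.21 ± 0.06 (edgeR adjusted p = 0.0242), where it fell at Aconiti high.

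**Figure D5:**
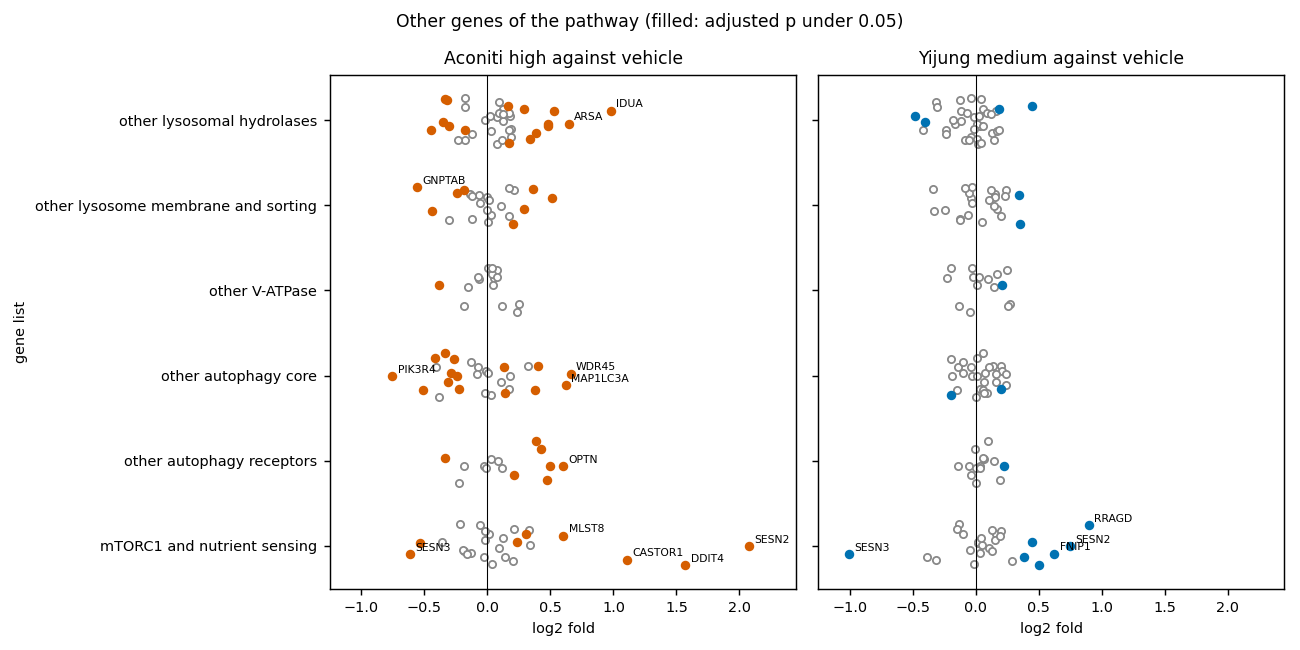
Log2 fold against vehicle of the 144 other pathway genes tested, by gene list, at Aconiti high (left) and Yijung medium (right); filled points have an edgeR adjusted p under 0.05 and vertical position within a list has no meaning. SESN2 lies farthest right at Aconiti high at 2.07, and SESN3 farthest left at Yijung medium at -1.01.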

How the data were processed

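Libraries were made with the MGIEasy RNA Directional kit and read in 100 bp pairs on MGIseq, per the labels' protocols. The submitters' processing notes name FastQC 0.11.9, Trim Galore 0.6.5, STAR 2.7.3a, RSEM 1.3.3 and GRCh38; annotation release and strand setting are not given in the sources used here. The authors deposited expected counts per Ensembl gene, of which 9.37% were not whole; they were rounded. Of 269 sample columns 60 were used and 209, with no sample among the labels used here, were not.

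Counts were scaled by TMM, genes kept by filterByExpr, and the 57 libraries of the 19 groups of 3 fitted together with edgeR 4.0.16 (quasi-likelihood, R 4.3.3, 38 residual degrees of freedom), giving 32 comparisons, each with Benjamini-Hochberg adjustment over 17268 genes. SE is the absolute log2 fold over the square root of F. Percentages of all genes are those with an adjusted p under 0.05, unless an unadjusted p or another measure is named. Values of every library are given for the 12 members with the largest folds past the threshold at Aconiti high, 6 at Yijung high or medium and up to 4 elsewhere. Wider-list genes named at Aconiti high and Yijung high have the largest folds, up to 3 per list and direction. They are among those past the threshold whose higher group averages 5 CPM or more. Those named at Yijung medium were chosen after their values were seen. On simulated counts for Aconiti high against vehicle (16929 genes), 63 of 100 genes changed 1.5-fold and 84 of 100 changed 2-fold were found, with 10 false calls. The simulation gave every gene the same dispersion, 0.0103, and left all other genes unchanged. The data differ in both, so these figures do not measure how the test performed on the members. The members, lists and tests were chosen with earlier results of these data known. Alternatives were RLE scaling, no low-count filter, the replicate block, removal of mitochondrially encoded genes, length balance as a covariate, leaving out Citri medium library 1, fitting only the groups compared, DESeq2 1.42.0 and leaving out each library. No 2 replicates agreed within counting noise (lowest chi-square per degree of freedom 2.03). A wortmannin control named in the design text was not analysed here. Some genes of the lists are not reported here by name.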

Additional observations from a re-analysis of the deposited data

Results flagged for a closer look

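The change from the low to the high dose differed between the 2 extracts of a set label by a direct test of the difference (edgeR contrast, Benjamini-Hochberg adjusted) for 9 gene and extract pairs, and each is given as its log2 difference with the SE. Aconiti less Bupleuri gave 0.63 ± 0.16 for WIPI1 (adjusted p = 0.00614), 0.59 ± 0.12 for SQSTM1 (0.00042), 0.50 ± 0.09 for GAA (0.000201), 0.47 ± 0.12 for ATG7 (0.00772), 0.45 ± 0.12 for CTSL (0.00917), 0.41 ± 0.08 for MAP1LC3B (0.000697), 0.27 ± 0.07 for TFE3 (0.00579) and -0.48 ± 0.08 for ATP6V1A (2.06e-05). Without the low-count filter the calls of WIPI1 and TFE3 ended and the other 6 were kept. The low and high doses of the 2 extracts differ, 14.4 and 360 µg/mL for Aconiti and 20 and 500 µg/mL for Bupleuri, and the share of mitochondrially encoded counts rose with the Aconiti dose; their part was not tested. Yijung less Banhasasim, at equal doses, gave 0.77 ± 0.12 for CTSL (2.66e-05).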

How the results depend on the processing

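At Aconiti high 16 members passed (32.7% of all genes), 15 to 20 under the alternatives (12.9% to 37.7%) and 15 to 16 without 1 library (22.5% to 37.2%). No fold of a called member changed sign under any alternative run; over genes, comparisons and alternatives 1072 calls were kept and 130 ended. Counts of members that moved by over 1.5 times were as follows, and the cause was not tested. Shares in parentheses are of all genes in the same fit. With length balance as a covariate they became 7 for Cimicifugae high against vehicle (7.12%), 1 for Bupleuri high (3.29%), 5 for Aconiti medium (5.5%), 8 for Yijung high (14.8%) and 11 for Yijung medium (18.2%). They also became 2 for Cimicifugae high against low (3.82%), 15 for Aconiti (24.8%) and 4 for Yijung (3.97%) high against medium, 1 for Cimicifugae against Citri high (2.44%), 4 for Yijung against Banhasasim high (9.83%), and 1 (0.324%) and 14 (19.4%) for the differences of dose change in sets 5 and 6. With only the groups compared (fewer libraries behind the spread), they became 12 (12.2%) for Cimicifugae high and 4 (6.5%) for Bupleuri high against vehicle, 6 for Aconiti high against low (9.57%), 3 (3.81%) and 0 (0.059%) for Aconiti and Yijung high against medium, 5 for Cimicifugae against Citri (6.73%), 8 for Aconiti against Bupleuri (15.7%) and 1 for Yijung against Banhasasim (2.28%). Without the low-count filter (36666 genes tested) 0 passed for Cimicifugae high (0.374%) and for Aconiti medium (0.513%). Without Citri medium library 1 in the fit, 4 passed for Aconiti medium (3.69%), 5 for Yijung high (9.42%), 2 for Yijung high against medium (1.57%), 1 for Cimicifugae against Citri (1.1%), 4 for Yijung against Banhasasim (6.65%) and 2 for the difference of dose change in set 7 (1.74%). DESeq2 gave 1 for Citri medium (0.831%), 4 for Aconiti medium (3.73%), 6 for Yijung high (8.89%), 2 for Yijung high against medium (1.67%), 1 for Cimicifugae against Citri (1.02%) and 4 for Yijung against Banhasasim (6.69%). RLE scaling and removal of mitochondrially encoded genes gave 2 each for Yijung high against medium (1.13% and 1.12%).

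Leaving out 1 library gave 0 to 5 for Citri medium (0.0% to 13.2% of all genes) and 0 to 1 for Cimicifugae high (0.849% to 1.22%). Aconiti medium had 0 to 2 (1.15% to 1.77%) and Yijung high 2 to 4 (4.22% to 7.99%). Yijung medium had 4 to 6 (5.4% to 7.64%), with 4 without vehicle library 1 or Yijung medium library 1. Aconiti high against low had 11 to 14 (16.8% to 25.2%) and Aconiti high against medium 7 to 8 (8.43% to 14.5%). Yijung high against medium had 1 to 2 (0.609% to 0.906%), with 2 without Yijung medium library 2. Aconiti against Bupleuri had 11 to 16 (17.4% to 25.0%). Yijung against Banhasasim had 1 to 3 (2.62% to 5.91%), with 1 without Yijung high library 2 or any 1 Banhasasim high library.

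The labels do not say that replicate numbers pair libraries. Of 38 pairs of groups, 2 had all 3 same-numbered correlations over 0.1 (range -0.565 to 0.789), so the numbers were not taken as pairs. With the replicate block 16 members passed at Aconiti high (32.5% of all genes) and 14 at Aconiti high against low (22.6%). At Yijung high 3 passed (7.19%), at Yijung medium 7 (7.77%) and at Cimicifugae high 2 (1.97%), where GAA no longer passed.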
